A study of Rattus norvegicus with 9 samples.

Results

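A set of 89 rat genes was chosen by the values deposited for the 9 libraries. FPKM, which scale the reads of a transcript by its length and by the depth of the library, were added over the transcripts that a library's file lists under 1 Ensembl gene ID, and a gene was taken as 0 where its ID was not listed. Members were at 1 FPKM or more in all 3 libraries of undifferentiated mesenchymal stem cells (MSCs) and under 0.1 FPKM in all 6 libraries of induced cells, with an annotated transcript of at least 300 bases. They were 89 of 20973 genes, of which 18914 had a transcript of that length. By this sum all 89 were listed at 0 in every induced library, so that induction would seem to switch them off. The data go against that reading for 87 of the 89. Their loci stood in the induced libraries under another ID, given by the assembly program. With unannotated isoforms over their exons counted, they were at 0.995 FPKM or more. By annotated transcripts alone, 64 were at 1 FPKM or more in all 6 induced libraries. When every transcript over their exons was counted, 2 genes stayed under 0.1 FPKM in all 6 induced libraries, among them an unnamed gene of low level (ENSRNOG00000039350).

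mRNA was sequenced from bone marrow MSCs of Sprague-Dawley rats at passage 3. The 3 groups held 3 libraries each: untreated MSCs, cells labelled as MSC-derived neural progenitor cells (NPCs) after 3 days with EGF and bFGF at 20 ng/ml each, and NPCs that also received IGF-1 over the same time (dose not given in the sources used here). In the study's methods, the 3 MSC replicates came from 3 rats and NPCs were made from those MSCs, but the labels do not tie a library to a rat. NPCs also differed from MSCs in the medium and in growth in suspension, and no library held cells kept so without growth factors, so these cannot be told apart from the growth factors. In bulk RNA, fewer cells of a type and less RNA per cell cannot be told apart.

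MSCs are adherent stromal cells that form bone, cartilage and fat, and in culture they hold stress fibres and many proteins of smooth muscle. Vimentin (Vim) builds their intermediate filaments. Cartilage intermediate layer protein (Cilp) is a protein of the extracellular matrix, and the acid phosphatase Acp5 is best known from osteoclasts, which resorb bone. A transcript assembler joins reads into transcripts with the annotation as a guide, and it groups overlapping transcripts of a library into loci. Where a locus received an ID of its own, its transcripts were written under that assembly ID in place of the Ensembl gene ID, while annotated transcripts kept their transcript ID.

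Libraries differed in how often this occurred. Over the 5430 genes at 1 FPKM or more in all 9 libraries, 2143 to 2361 genes (39.5 to 43.5%) stood under an assembly ID in an MSC library and 2844 to 3332 (52.4 to 61.4%) in an induced library. Induced libraries also held more unannotated transcripts, 64618 to 90998 against 28763 to 36570, at a similar depth: the width of the deposited confidence intervals implied 36.7 to 45.5 M reads per induced library and 40.7 to 48.7 M per MSC library. No gene listed under its Ensembl ID held an unannotated isoform in any library. Of the 5430 genes, 86 were under the Ensembl ID in all MSC libraries and under an assembly ID in all induced libraries, 11 showed the reverse, 490 kept the Ensembl ID throughout, and 4843 had other patterns. Members of the set came mostly from the first of these patterns.

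**Figure D1:**
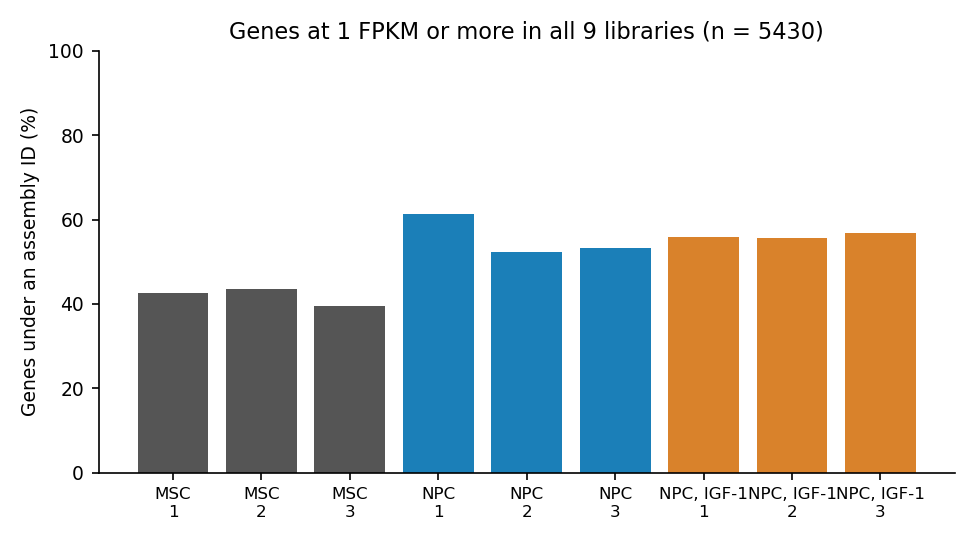
Share of genes listed under an assembly ID in each library (bars, percent), over the 5430 genes at 1 FPKM or more in all 9 libraries. MSC bars lie between 39.5 and 43.5% and the bars of the 6 induced libraries between 52.4 and 61.4%.

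Among the 89 members, 87 had the Ensembl ID in all 3 MSC libraries and an assembly ID in all 6 induced libraries. In an induced library, 49 to 58 members had an unannotated isoform in the locus, 30 to 38 had only annotated transcripts there, and at most 1 shared the locus with another gene. Where an unannotated isoform was present, it took a median of 35.3 to 46.3% of the member's FPKM. In all, 81 members had such an isoform in at least 1 induced library, 15 had it in all 6, 8 had it in none, and no member had it in an MSC library. The absence in MSC libraries followed from the rule, which needed the Ensembl ID there. The summed FPKM of the members under assembly IDs ran from 2783 to 3235 in the induced libraries. Under Ensembl IDs they summed to 4529 to 5088 in the MSC libraries, most of it from Vim.

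Levels were therefore read as sums over exons, which add every transcript on the gene's strand that shares exonic bases with it, whatever its ID. In the MSC libraries this sum equalled the sum by gene ID for all 89 members, which the choice of genes fixed in the same way. Unannotated isoforms could therefore add to the members' sums only in the induced libraries. In the induced libraries, 87 members were at 0.995 to 879 FPKM, and 86 of them were at 1 FPKM or more in all 6. By annotated transcript IDs alone, without unannotated isoforms, 64 members were at 1 FPKM or more in all 6. The median member had 8.27 FPKM in MSCs, 9.35 in NPCs and 9.67 in NPCs with IGF-1, as medians of group means over the 87.

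**Figure D2:**
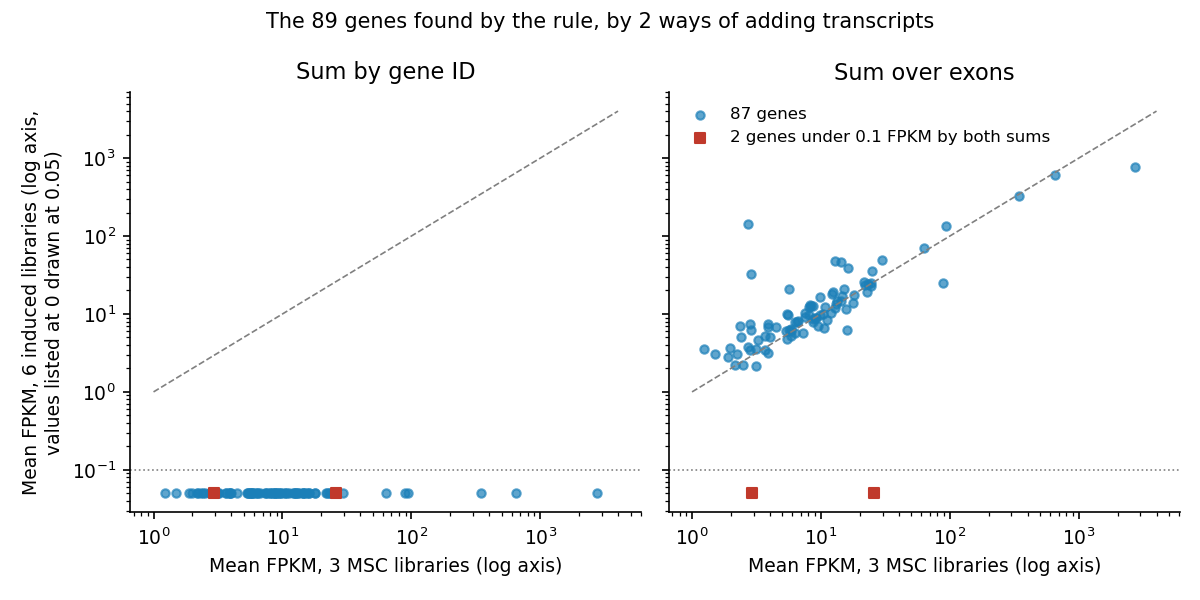
Mean FPKM of each of the 89 genes in the 6 induced libraries against the 3 MSC libraries, on log axes, added by Ensembl gene ID in 1 panel and over exons in the other, with values listed at 0 drawn at 0.05. By gene ID all 89 lie at 0 in the induced libraries, and over exons 87 lie at 0.1 FPKM or more, with Cilp the farthest above the diagonal, and 2 remain at 0.

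A member that stayed at 0 by every sum was a short gene. ENSRNOG00000039350 (chr10:14901656-14903560, plus strand, 3 exons, 354 bases) had 2.75, 4.07 and 1.97 FPKM in the MSC libraries and was listed at 0 in all 6 induced libraries. An assembly ID stood at it in NPC replicate 2 and in NPC with IGF-1 replicate 2. A value listed at 0 in files of this kind can also be a failed estimate, which was not tested.

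The second highest member in MSCs showed the other pattern. ENSRNOG00000026260 (chr5:158155378-158158916, minus strand, 6 exons, 595 bases) had 641, 633 and 667 FPKM in MSCs, 586, 661 and 517 in NPCs and 633, 678 and 600 in NPCs with IGF-1. The ranges overlapped, although by gene ID it stood at 0 in all induced libraries.

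Of the 87, the 6 induced libraries lay above all 3 MSC libraries for 26 members and below them for 6, and they overlapped for 55. Over all 14228 genes tested, 23.4% lay above and 18.8% below. The difference in log2(FPKM + 0.1) between NPCs and MSCs had a median of 0.14 over the 87, beside 0.02 over all tested genes, and ran from -1.92 to 5.71, with 76 members within 1 of no difference. With IGF-1 the median difference from MSCs was 0.12, beside 0.05, the range was -1.96 to 5.26, and 73 members lay within 1. A gene was called in limma where its adjusted p was 0.05 or less and its log2 difference reached 1 in size. NPCs against MSCs gave 12 called members of 89 (13.5%), 7 higher and 5 lower, against 21.5% of all tested genes, 11.5% higher and 10.1% lower. NPCs with IGF-1 against MSCs gave 16 (18.0%), 11 higher and 5 lower, against 21.4%, 11.6% higher and 9.8% lower. Unannotated isoforms added to the members' sums only in the induced libraries, while other genes could hold them in MSC libraries too. Both comparisons share the MSC libraries, and since the rule used these groups, nothing is read from the members' counts.

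**Figure D3:**
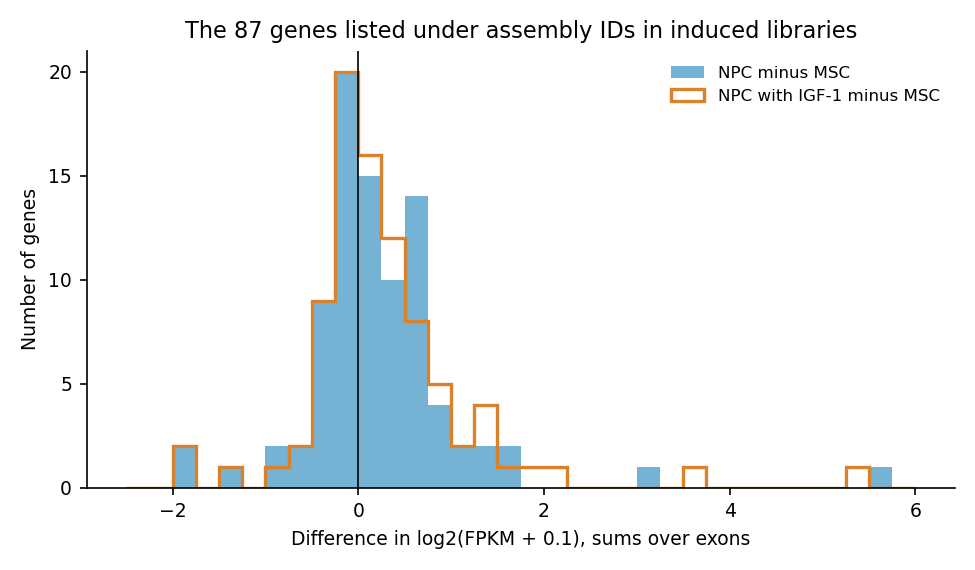
Histogram of the difference in log2(FPKM + 0.1), by sums over exons, between each induced group and MSCs for the 87 genes under assembly IDs in the induced libraries. Most genes lie between -1 and 1 (76 in NPCs, 73 with IGF-1), and the gene farthest to the right is Cilp at 5.71 and 5.26.

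A gene name was at hand for 15 members, and 14 are described by whether their induced libraries lay below, overlapped or lay above the MSC range, with values as sums over exons in FPKM. The promoters of the 2 named genes that lie farthest apart among the 87, Vim and Cilp, are printed here because both were listed at 0 by gene ID while 1 was lower and 1 higher than in MSCs by exon sums. Of the 15 names, 13 matched the RefSeq promoter table of build GRCr8, from which the 250 bases before each start were read, at chr17:81577011-81577260 (plus strand) for Vim and chr8:74672198-74672447 (plus strand) for Cilp. Capitals mark CCAAT or its reverse complement ATTGG, and TATAAA.
Vim: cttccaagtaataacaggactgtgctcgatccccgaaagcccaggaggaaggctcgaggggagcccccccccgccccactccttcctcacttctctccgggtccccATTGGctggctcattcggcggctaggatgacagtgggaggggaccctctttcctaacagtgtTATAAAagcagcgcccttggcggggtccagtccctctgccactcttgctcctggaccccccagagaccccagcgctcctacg
Cilp: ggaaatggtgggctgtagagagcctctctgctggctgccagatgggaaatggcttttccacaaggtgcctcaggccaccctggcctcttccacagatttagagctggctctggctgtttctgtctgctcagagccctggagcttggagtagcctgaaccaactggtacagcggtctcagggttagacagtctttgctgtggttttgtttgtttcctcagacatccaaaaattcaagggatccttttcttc
The Vim window held 1 ATTGG and 1 TATAAA, and the Cilp window held neither. CCAAT, read on both strands, was in 34.0% of the 33469 windows of the table and, among the members, in those of Vim and Lpcat4. TATAAA was in 12.9% of windows and, among the members, in that of Vim. The motif CACGTG was in 5.59% of windows and in none of the 13. The motif CATGTG was in 12.1%, among them Acp5 and Lmf1. These are matches of letters only.

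Vim was the highest member in MSCs and 1 of the 6 of 87 that lay below the MSC range. Vim (chr17:82500858-82509377, plus strand, 9 exons) had 3015, 2625 and 2560 FPKM in MSCs (2733 ± 246, SD, n = 3), 879, 674 and 747 in NPCs (766 ± 104) and 801, 826 and 629 in NPCs with IGF-1 (752 ± 107). All induced libraries lay below all MSC libraries, by -1.92 and -1.96 on the log2 scale, and its induced mean was still the highest of the members. Of 9 MSC markers on the fixed list only 2 had a name, Vim and Itgb1, the integrin β1 chain. Itgb1 was at 996 to 1217 FPKM in MSCs and at 203 to 271 in the induced libraries. The study reports Fn1, a marker on that list without a name here, as upregulated in NPCs. Pvr (chr1:82085299-82100950, minus strand), a nectin-like adhesion receptor, had 20.5, 20.5 and 7.13 FPKM in MSCs, 4.51, 3.67 and 9.39 in NPCs and 7.65, 6.20 and 5.47 with IGF-1. Its ranges overlapped through MSC replicate 3 and NPC replicate 3, and its log2 differences were -1.48 and -1.25. The difference between NPCs and MSCs was -1.92 without MSC replicate 3.

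Another 6 named members overlapped the MSC range. Lmf1, which matures lipases in the endoplasmic reticulum, had 12.3, 6.76 and 10.4 FPKM in MSCs, 5.88, 8.0 and 14.2 in NPCs and 8.07, 9.03 and 13.3 with IGF-1. Prkrip1, a binding partner of the RNA-dependent kinase PKR, had 9.99, 9.80 and 6.35, then 9.77, 8.47 and 7.95, then 8.71, 8.61 and 8.79. Aacs, which activates acetoacetate for lipid synthesis, had 10.6, 10.7 and 4.71, then 9.93, 9.08 and 6.63, then 8.67, 7.83 and 5.75. For these 3 the induced libraries overlapped the MSC libraries, and MSC replicate 3 was the lowest MSC library for Prkrip1 and Aacs. Lin54, the DNA-binding subunit of a complex that controls cell cycle genes, had 3.74, 4.17 and 3.04 FPKM in MSCs, 3.30, 6.95 and 3.77 in NPCs and 4.11, 8.13 and 5.13 with IGF-1. Gal3st4, a sulfotransferase that acts on galactose, had 3.42, 4.04 and 1.98, then 3.10, 4.51 and 3.82, then 3.17, 3.21 and 3.21. Lpcat4, an acyltransferase of phospholipids, had 3.85, 2.96 and 2.58, then 1.87, 1.14 and 2.95, then 2.73, 2.37 and 1.93. The log2 differences of these 6 genes from MSCs ran from -0.78 (Lpcat4 in NPCs) to 0.52 (Lin54 with IGF-1).

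Of the named members, 6 of 15 lay above the MSC range in all 6 induced libraries, beside 23.4% of all genes tested, and Cilp was the farthest. Names come from tables of genes that the study chose largely on these libraries, so nothing is read from this share. Cilp (chr8:70452358-70467298, plus strand, 9 exons) encodes the cartilage intermediate layer protein, a secreted matrix protein. It had 2.37, 2.47 and 3.35 FPKM in MSCs, 152, 246 and 98.4 in NPCs and 163, 113 and 80.3 with IGF-1. The mean in NPCs was 60.5 times that in MSCs. Its locus held no unannotated isoform, so its annotated transcript carried this level under an assembly ID.

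Acp5 and Mitf are known from osteoclasts and macrophages. Acp5 (chr8:23197109-23201927, minus strand) encodes the tartrate-resistant acid phosphatase and had 6.09, 6.23 and 4.72 FPKM in MSCs, 22.2, 19.3 and 15.0 in NPCs and 26.5, 24.4 and 19.2 with IGF-1. Mitf (chr4:194667979-194918737, plus strand) encodes a transcription factor of melanocytes and osteoclasts and had 2.48, 2.89 and 3.06, then 6.36, 7.12 and 7.40, then 7.86, 6.84 and 9.18. Their log2 differences from MSCs were 1.63 and 1.93 for Acp5 and 1.21 and 1.38 for Mitf, with no overlap. Markers of macrophages moved with them: 2 of 6 in the fixed list had a name, and Cd68 and Aif1 summed to 0.226 to 0.502 FPKM in MSCs, 9.54 to 11.4 in NPCs and 8.97 to 14.4 with IGF-1. Nearly all of it was Cd68, a lysosomal protein, and Aif1 was listed at 0 in 8 of 9 libraries. Of the haematopoietic markers, 3 of 7 had a name, and they summed to at most 0.269 FPKM in any library. Spi1, a transcription factor of myeloid cells, rose from at most 0.0311 FPKM in MSCs to at least 0.136 in the induced libraries (log2 1.20 and 1.49), Lcp1, an actin-bundling protein of leukocytes, fell from at least 0.183 to at most 0.0276 (-1.65 and -1.55), and Ptprc was at most 0.0142. The part of other cells in the levels of Acp5 and Mitf was not tested.

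Qprt, Enox1 and Capn5 were also above the MSC range. Qprt, which turns quinolinate towards NAD, had 3.13, 2.50 and 3.05 FPKM in MSCs, 5.05, 6.34 and 5.84 in NPCs and 8.62, 5.86 and 5.71 with IGF-1. Enox1, a cell surface oxidase, had 1.01, 1.33 and 1.37, then 3.07, 3.57 and 4.13, then 5.01, 3.16 and 2.57. Capn5, a calcium-dependent protease, had 2.28, 2.09 and 2.68, then 8.53, 6.78 and 5.69, then 6.90, 7.58 and 6.05. Their log2 differences from MSCs lay between 0.89 and 1.45. For Acp5 and Capn5 the direction depended on the unannotated isoforms: by annotated transcript IDs alone Acp5 was listed at 0 in NPC replicate 2 and its difference in NPCs was -1.30, and Capn5 was listed at 0 in replicate 3 with IGF-1 and its difference there was -0.69.

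**Figure D4:**
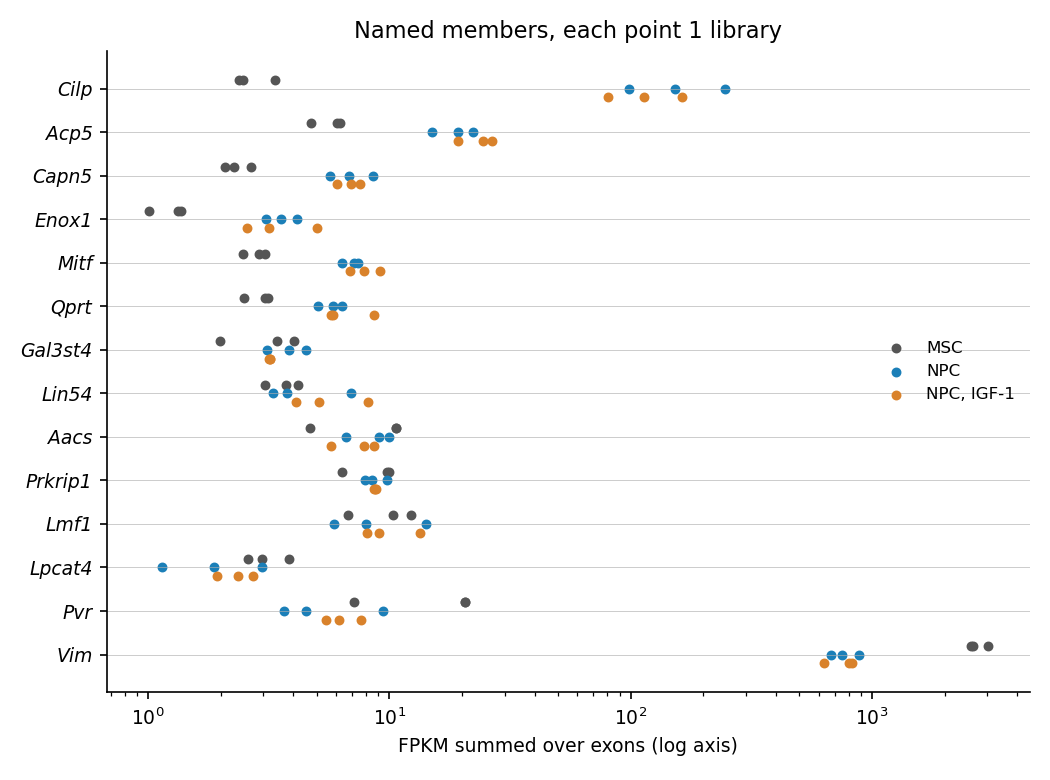
FPKM summed over exons of 14 named members, each point 1 library, on a log axis. Vim lies lower and Cilp higher in the induced libraries than in MSCs, and Lmf1, Prkrip1, Aacs, Lin54, Gal3st4 and Lpcat4 overlap.

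IGF-1 is a contrast the rule did not use, since both induced groups had to be under the same limit. No member of 89 was called between NPCs with IGF-1 and NPCs in limma, against 0.0211% of all 14228 genes tested (3 genes, 0.0141% higher and 0.00703% lower). The lowest adjusted p of a member was 0.937. At an unadjusted p under 0.05 there were 5 members (5.62%), 3 higher and 2 lower, against 4.62% of all tested genes. The differences of the members ran from -0.59 to 1.12 on the log2 scale with a median of 0.01. The 95% interval of the difference reached a median of 0.42 to either side (0.229 to 1.43), and for 75 members it lay within 1 of no difference. For Vim the difference was -0.04 (95% interval -0.40 to 0.31), for Cilp -0.45 (-1.23 to 0.33), for Acp5 0.30 (-0.08 to 0.68), for Lpcat4 0.29 (-0.44 to 1.02) and for Pvr 0.23 (-0.73 to 1.18), so a difference of 1 lay inside the interval for Cilp, Lpcat4 and Pvr.

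**Figure D5:**
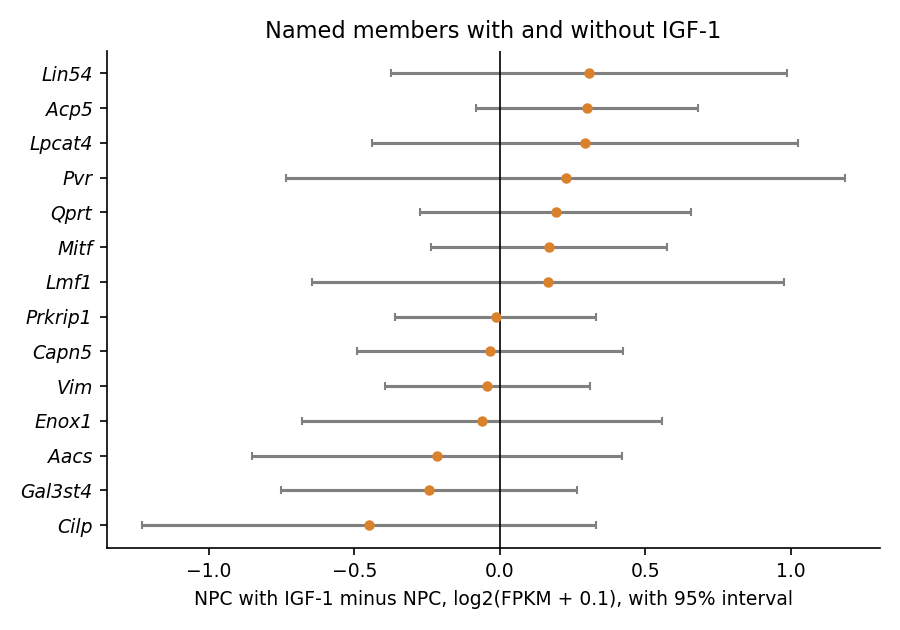
Difference in log2(FPKM + 0.1) between NPCs with IGF-1 and NPCs without it for 14 named members, with 95% intervals from limma. All intervals reach over 0, and those of Cilp, Lpcat4 and Pvr reach beyond 1 in size.

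Genes near the limits of the rule are given for description. Just inside the MSC limit was Enox1, whose lowest MSC library had 1.01 FPKM. Just outside was Dcn (decorin, a small proteoglycan of the matrix), with 1.13, 1.06 and 0.997 FPKM in MSCs and listed at 0 by gene ID in all induced libraries. By exon sums Dcn had 41.2, 73.7 and 202 FPKM in NPCs and 63.6, 187 and 332 with IGF-1, all above MSCs. At the other limit, Negr1, a neuronal adhesion protein, missed through 0.147 FPKM in NPC with IGF-1 replicate 2, and Prss12, a secreted protease, had at most 0.174 FPKM in an induced library. Their Ensembl IDs stood in all 9 libraries.

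Leaving out a library changed the set. Without 1 library at a time the rule found 102 to 185 genes, of which 89 met the limit in the library left out, 48.1% (MSC replicate 2) to 87.3% (NPC with IGF-1 replicate 3). Chosen on MSCs and NPCs alone, 186 genes were found and 47.8% met the limit in the 3 libraries with IGF-1. By exon sums the rule found 18 genes, and of 25 chosen without the IGF-1 libraries 72.0% met the limit in them.

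On exon sums, 2 of those 18 genes were members, ENSRNOG00000039350 among them. The 16 others had been missed by gene ID, and all of them stood under an assembly ID in at least 1 MSC library. They included Kif20a, a kinesin of cytokinesis, with 7.36, 6.91 and 5.47 FPKM in MSCs, and Ca3, a carbonic anhydrase of muscle, with 1.40, 1.31 and 1.75, both listed at 0 in all 6 induced libraries. Whether such a 0 was a failed estimate was not tested here either. Nmu, a neuropeptide, Prnd, a relative of the prion protein, Cenpf, a kinetochore protein, Cdh18, a cadherin, and Dync1i1, a dynein chain, were at 1.01 to 6.11 FPKM in MSCs and at most 0.0947 in an induced library. By transcript ID the rule found 12 genes, again with 2 members. The reverse rule, silent in MSCs, found 17 genes by gene ID and 32 by exon sums.

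The genes found by the rule were spread over 18 chromosomes. Their longest transcripts had a median of 2170 bases (354 to 6018) and 9 exons, and 85 had 1 annotated transcript. The 5856 genes at 1 FPKM or more in all MSC libraries by exon sums had medians of 1872.5 bases and 7 exons.

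Genes next to the members were called at shares near the background. Of 177 nearest tested genes on either side, 19 were called higher and 15 lower in NPCs (10.7 and 8.47%), and 19 and 14 with IGF-1 (10.7 and 7.91%), beside 11.5 and 10.1%, and 11.6 and 9.8%, of all tested genes. Rasd1, a Ras-related GTPase, rose from 2.85, 3.84 and 1.11 FPKM in MSCs to 92.9, 108 and 136 in NPCs (log2 5.45 ± 0.37, SE, limma adjusted p = 7.91e-05). Evpl, envoplakin of desmosomes, rose as well (log2 3.76), whereas Trh, the precursor of thyrotropin-releasing hormone (-5.08), Fhl5, a LIM-domain protein (-4.41), and the secreted protease Prss23 (-4.12) fell.

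Of genes related by name to a named member, only 2 were tested. Lin7a, a scaffold of cell junctions that shares only the stem of Lin54, fell (log2 -2.23 in NPCs, -2.76 with IGF-1). Cilp2, the paralogue of Cilp, had 0.343, 0.237 and 0.778 FPKM in MSCs and 1.15, 0.844 and 3.26 in NPCs, and its log2 differences of 1.57 and 0.94 were not called.

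The other genes were counted on 15 lists of pathways and gene families, with members left out. The names come from tables in which the study set out genes chosen largely on 6 of these libraries, and 53.3% of the named genes tested were called in NPCs (26.1% lower) and 52.3% with IGF-1 (24.7% lower), so counts on the lists are not independent evidence of a direction. In muscle lists nearly all tested genes fell. Of 4 sarcomere genes 3 fell in NPCs and 4 with IGF-1, among them Lmod3, a nucleator of actin filaments (log2 -2.98 and -2.79), and Myh4, a fast myosin heavy chain (-2.03 and -2.67). Both calcium-handling genes fell: Casq2, calsequestrin, from 17.1, 19.0 and 14.3 FPKM in MSCs to 0.230, 0.106 and 0.394 in NPCs, and Pln, phospholamban, from 65.0, 84.7 and 74.3 to 3.16, 2.84 and 5.05. All 5 smooth muscle genes fell in both groups, and Tagln, transgelin, went from 4237 to 4799 FPKM in MSCs to 32.8 to 138 in NPCs and 27.4 to 110 with IGF-1. Actc1, the cardiac actin and only named marker of striated muscle, was at most 0.0348 FPKM in MSCs.

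Cell division genes also fell. Of 21 tested genes of mitosis and cytokinesis 20 were lower in each induced group, as were 7 of 8 kinetochore genes and 4 of 5 kinesins. These lists overlap, since all 5 kinesins and 2 of the kinetochore genes are among the 21. Kif23, a kinesin of the midbody, went from 4.08, 4.35 and 2.86 FPKM to 0.155, 0.272 and 0.194 in NPCs (log2 -3.71). The remaining lists were small. Of 5 MSC surface genes 3 fell and 1, Vcam1, rose in each group (log2 4.67 in NPCs and 4.52 with IGF-1). All 3 BMP and GDF ligands, both cadherins, the only IgLON gene and the only glutamate carrier were lower in both groups. Of Wnt ligands 1 of 3 rose and 1 fell, and of Eph receptors and ephrins 1 of 5 rose while 4 fell in NPCs and 3 with IGF-1. Carbonic anhydrases rose in 1 and fell in 1 of 2 in NPCs, and 3 of 4 rose and 1 fell with IGF-1. The filter was applied within each fit, so Ca4 and Ca12 were tested only with IGF-1. Ca12 was listed at 0 in MSCs, at 3.06, 1.21 and 0.0634 FPKM in NPCs and at 2.14, 3.98 and 3.96 with IGF-1. Potassium channels rose in 6 of 10 and fell in 4 of 10 in NPCs, and with IGF-1 6 of 12 rose and 4 fell. Over all lists 55 of 70 genes were lower in NPCs (78.6%) and 55 of 74 with IGF-1 (74.3%).

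Introns of the members held short unannotated transcripts on the same strand. There were 16, 53 and 18 in the MSC libraries, 370, 312 and 283 in NPCs and 251, 191 and 263 with IGF-1, nearly all of a single exon. They made 0.0556 to 0.145% of the unannotated transcripts of an MSC library and 0.296 to 0.407% of those of an induced library, which held 64618 to 90998 against 28763 to 36570 in all. Assembly IDs went with unannotated isoforms and the rule picked genes by these IDs, so the members' difference from MSCs is a description. Its planned exact permutation test gave p = 0.1 for each induced group, and nothing is read from it. Between the induced groups the numbers did not overlap (two-sided exact permutation p = 0.1, the smallest that 3 against 3 can give), while the summed FPKM did (exact permutation p = 0.8). As shares of a library's unannotated transcripts the induced groups overlapped as well. These shares were 0.407, 0.365 and 0.388% in NPCs and 0.326, 0.296 and 0.375% with IGF-1. Transcripts near 51 bases had the highest FPKM in each induced library. For transcripts of at least 300 bases the sums were 48.5, 25.8 and 9.21 FPKM in MSCs, 540, 382 and 204 in NPCs and 193, 219 and 257 with IGF-1.

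Few markers of other tissues had names. Nes, the intermediate filament of neural progenitors, had 0.152, 0.145 and 0.0534 FPKM in MSCs and 0.268 to 0.331 in the induced libraries, all above MSCs, and its log2 differences of 0.89 (limma adjusted p = 0.0419) and 0.85 (0.0243) were under the size a call needs. With Msi1 and Fabp7 it summed to 0.459 to 0.697 FPKM in MSCs, 0.540 to 0.750 in NPCs and 0.694 to 0.987 with IGF-1, and Fabp7 was listed at 0 in all 9 libraries, as was the neuronal marker Rbfox3. The glial list, 4 of 5 named, summed to 92.7 to 102 FPKM in MSCs and 81.7 to 148 in induced libraries, nearly all of it S100b. Endothelial, adipocyte and osteoblast markers were at most 0.520 FPKM. Sox9 of chondrocytes was at 3.49 to 5.35 FPKM in MSCs and at 2.29 to 9.39 in induced libraries.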

How the data were processed

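Rat bone marrow MSCs and NPCs were measured by stranded, single-end mRNA sequencing from 300 ng of total RNA. Each file holds the transcripts assembled for 1 library. FPKM per transcript, with its confidence interval, stands in the attribute text as deposited by the authors, and no read counts were used. The score column as deposited was not used. Per the labels the tools were CASAVA 1.8, bcl2fastq, TopHat, Bowtie2, Cufflinks and Cuffdiff. Neither the genome build nor the annotation release was found (not given in the sources used here), while methods of the study describe another route for its own tables.

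Transcript FPKM were added by Ensembl gene ID, by annotated transcript ID, and over exons. Sums by gene ID had been planned for all steps, and sums over exons replaced them in the fits after the IDs were seen to differ between libraries. Size factors were medians of ratios. After division by them, log2(FPKM + 0.1) was fitted in R 4.3.3 by limma 3.58.1, with eBayes moderated by trend and robustly, over genes with 0.1 FPKM in at least 3 libraries and a transcript of 300 bases. A fold on this scale understates the change of low genes. NPCs and MSCs were fitted on 6 libraries, and the contrasts with IGF-1 on all 9. Calls rested on Benjamini-Hochberg adjustment in limma with a threshold of 0.05, and on a log2 difference of 1 or more in size. Depth was read from the width of the deposited confidence intervals. Other steps ran in Python 3.11.15 (scipy 1.17.1, pandas 2.3.3, matplotlib 3.10.9, numpy 2.4.6).

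Simulated data held 200 changed genes. The fit of NPCs and MSCs called 69 of 100 genes changed by 1.5 and 87 of 100 changed by 3 (log2). It also called 8 unchanged genes, in a fit of 13480 genes that included the changed ones. For NPCs with IGF-1 against MSCs these were 68, 85 and 4 in a fit of 13924, and against NPCs 54, 90 and 5 in 13928. Against MSCs 21.5 and 21.4% of the genes tested were called in the libraries, a larger share than was changed here. These rates may therefore differ from those of the real fits.

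The members and lists were chosen with earlier results of these data known. Gene names were taken from the study's tables, which name 3591 genes, and 74 members had none. Of the 15 named members 14 are described and 1 is not reported here. Also given are 2 unnamed members by ID, the genes nearest each limit, up to 5 called neighbours and relatives, and up to 4 genes of a list. Neighbours are the nearest tested genes on each side. Calls of members against MSCs are given as description only, since the rule used those groups. The contrast between the induced groups was added after the data were seen. Alternatives were other pseudocounts, filters, scalings and sums, a replicate block, and leaving out libraries.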

Additional observations from a re-analysis of the deposited data

Results flagged for a closer look

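Members carried signal under IDs that the rule did not read. Under assembly IDs they summed to 2783 (NPC replicate 3) to 3235 FPKM (NPC with IGF-1 replicate 2) in the induced libraries and to 0 in the MSC libraries, where all of their transcripts stood under Ensembl IDs. This was singled out because it lies in records outside the sum that chose the genes. The split of IDs by group moved with the share of all expressed genes under assembly IDs, and its cause was not tested.

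Unannotated transcripts in the introns of the members, on their strand, numbered 191 (NPC with IGF-1 replicate 2) to 370 (NPC replicate 1) in the induced libraries and 16 to 53 in the MSC libraries. They were singled out because they lie outside the sums over exons. The rule picked loci by IDs that go with unannotated isoforms, and induced libraries held more unannotated transcripts in all (64618 to 90998 against 28763 to 36570). Nothing is therefore read from the test of this difference.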

How the results depend on the processing

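The rule found 89 genes by gene ID. The count was 12 by transcript ID, 18 over exons, 186 without the 3 IGF-1 libraries and 102 to 185 without 1 library. The share of the held-out set within the limit went from 47.8% to 72.0% over exons. Called genes in NPCs against MSCs numbered 2951, and 1716 with a pseudocount of 1, 1199 by transcript ID, 596 by gene ID and 2256 to 2854 without 1 library. With IGF-1 against MSCs there were 3044, and 1755, 1504, 373 and 2719 to 3060. Lower neighbours numbered 15 in NPCs, 37 with the 2 nearest genes on each side and 13 to 20 without 1 library. With IGF-1 there were 14, and 35 with the 2 nearest, 7 by transcript ID, 2 by gene ID and 11 to 14 without 1 library. Lower relatives numbered 1, 0 by gene ID and 1 without any 1 library, in both comparisons. Lower genes on the lists numbered 55 in each comparison, 36 by transcript ID in both, 16 and 14 by gene ID, and 39 to 55 and 42 to 56 without 1 library. Called members numbered 12 and 16 against MSCs, and 9 to 14 and 13 to 16 without 1 library. By gene ID they numbered 89 in both, which says nothing more, since the rule chose them by those sums. Between the induced groups there were 0, 1 by transcript ID and 0 to 0 without 1 library. The difference in summed FPKM of intronic transcripts, 185617 in NPCs and 170932 with IGF-1, was 347 and 195 for transcripts of 300 bases or more.

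Directions turned by gene ID, since a gene listed under an assembly ID is then 0. In NPCs the log2 difference became -5.89 for Acp5, -4.65 for Capn5, -4.85 for Cilp, -3.77 for Enox1, -4.90 for Mitf, 7.85 for Prss23 and -3.58 for Dcn. With IGF-1 it became -5.95 for Acp5, -4.71 for Capn5, -4.91 for Cilp, -3.83 for Enox1, -4.96 for Mitf, -5.00 for Qprt, 1.85 for Lin7a, 7.45 for Prss23, 8.85 for Tagln and -3.63 for Dcn. By transcript ID it turned for Acp5 in NPCs (-1.30) and Capn5 with IGF-1 (-0.69). Of 1137 values of single genes under the alternatives, 1064 were scored as unchanged. For named members against MSCs this meant a value near the main one, within a limit set by its standard error. For the other values it meant the same call, with no reversal of a called direction.

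Same-numbered libraries of different groups had correlations of their deviations from -0.0955 to 0.103, and libraries with different numbers from -0.0855 to 0.0627. These values cannot show whether same-numbered libraries share a rat, since a weak effect of the rat could give them too. With the replicate number as a block, 2866 and 3003 genes, 11 and 15 members, 16 and 14 lower neighbours, 1 and 1 relatives and 55 and 55 lower list genes were called, and 0 members between the induced groups. The 3 libraries a group and the lack of counts limit precision, and 74 members have no name.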
